A study of Rattus norvegicus with 12 samples.

Results

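The metallothioneins Mt1 and Mt2A, the zinc exporter Slc30a1 and the zinc importer Slc39a14 were followed through every library of a rat skeletal muscle RNA-seq study. They are 4 of the 24648 rows of the deposited count table, taken by their symbols, and all 4 passed the filter on low counts. They were selected on these same counts, as metal-responsive genes whose level varied strongly between libraries. The spread of their levels is therefore a description with no test, and the p-values given for them describe the fit and support nothing further.

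The libraries came from muscle of male rats aged 540 days, sequenced as 12 libraries of total RNA. The restriction rats were born to dams on a diet with 6% protein during gestation and lactation, and the control rats to dams on the control diet, with no other treatment or genetic change given. The numbers in the library titles fall into 2 sets, each with 3 restriction and 3 control libraries. Set 2 holds restriction 32, 33 and 35 and control 23, 28 and 29, and set 1 holds restriction 12, 13 and 15 and control 3, 8 and 9.

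The series names the soleus, a slow muscle, and the extensor digitorum longus, a fast muscle, but its labels tie neither to a library. Skeletal muscle genes were abundant throughout, with Acta1, the skeletal actin, at 46207 CPM (counts relative to the TMM-scaled library size) or more in each library. Myh7, the slow myosin heavy chain, ranged from 702 to 2589 CPM in set 2 and from 31172 to 38338 CPM in set 1. Myh4, a fast myosin heavy chain, ranged from 11042 to 47519 CPM in set 2, against 4.97 to 396 CPM in set 1. Sequencing depth spanned 29288433 to 31342247 counts in restriction set 2, 22869995 to 30146567 in control set 2, 22829692 to 26037169 in restriction set 1 and 26506707 to 38313704 in control set 1. Libraries of a group may come from littermates, and libraries of the 2 sets may come from the same rat, and the labels name neither dams nor litters. The tests thus rest on the spread among these 12 libraries alone, some of which may be technical.

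Metallothioneins are small, cysteine-rich proteins of the cytosol that bind zinc and copper and buffer free zinc. When free zinc rises, the transcription factor MTF1 binds short metal response elements upstream of the metallothionein genes and of Slc30a1, whose product, ZnT1, pumps zinc out of the cell across the plasma membrane. Metallothionein genes are also induced by glucocorticoids and by inflammatory signals, and Slc39a14, whose product ZIP14 carries zinc and iron into the cell, is an acute phase gene induced by interleukin-6 in mouse liver.

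The sequences upstream of 3 members are shown because they carry the feature that joins the metallothioneins and Slc30a1 in textbooks. The 250 bases before the annotated start of each gene come from RefSeq on the rat assembly GRCr8 and are written 5′ to 3′ on the strand of the gene, at chr19:10832976-10833225 (minus strand) for Mt1, chr19:10838709-10838958 (minus strand) for Mt2A and chr13:106021769-106022018 (plus strand) for Slc30a1. Capitals mark matches to the core of the metal response element, searched as TGCACNC or TGCGCNC on both strands, so that a match on the other strand begins with a G and ends in GCA.
Mt1: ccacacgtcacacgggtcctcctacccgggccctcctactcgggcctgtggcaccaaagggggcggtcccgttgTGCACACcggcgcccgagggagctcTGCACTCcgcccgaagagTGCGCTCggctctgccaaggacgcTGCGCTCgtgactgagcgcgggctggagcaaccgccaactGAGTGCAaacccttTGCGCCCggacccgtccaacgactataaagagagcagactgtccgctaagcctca
Mt2A: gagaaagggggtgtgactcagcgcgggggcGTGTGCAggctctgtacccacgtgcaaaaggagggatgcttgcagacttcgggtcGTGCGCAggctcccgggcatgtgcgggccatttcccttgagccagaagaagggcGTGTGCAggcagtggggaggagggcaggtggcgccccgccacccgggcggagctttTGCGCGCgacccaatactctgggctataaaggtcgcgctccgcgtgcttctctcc
Slc30a1: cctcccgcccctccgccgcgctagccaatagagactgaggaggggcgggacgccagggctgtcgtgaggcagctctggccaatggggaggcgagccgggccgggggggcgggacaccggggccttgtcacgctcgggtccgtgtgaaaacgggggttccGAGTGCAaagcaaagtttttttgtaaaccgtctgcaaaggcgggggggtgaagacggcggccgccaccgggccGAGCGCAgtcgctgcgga

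The Mt1 window held 6 matches, and 0.0269% of the 33469 rat promoter windows of the same length held as many. The Mt2A window held 4, and 0.266% of windows held as many, while the Slc30a1 window held 2, and 4.90% of windows held as many. At least 1 match was present in 20.6% of all windows. In both metallothionein genes the match nearest to the start lay on the strand of the gene, from 55 to 49 bases before it. Neither the palindromic glucocorticoid response element nor the STAT motif (searched as TTCNNNGAA) was matched in these 3 windows, and 0.012% and 7.67% of all windows held them. Neither of these motifs was matched in the windows of Mt3, Mt4 and Mtf1, which held 3, 1 and 2 matches to the metal response element core. A match is a description of the letters and not a measured binding site. The promoter window of Slc39a14 is not shown.

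**Figure D1:**
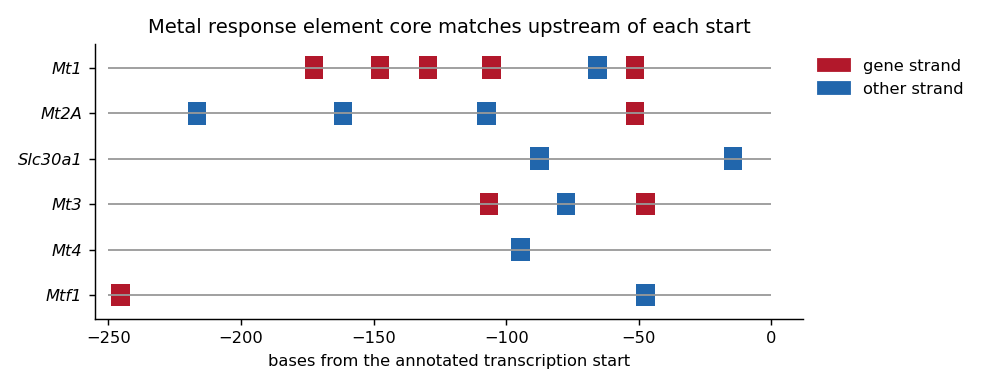
Positions of matches to the metal response element core in the 250 bases before the annotated start of 6 genes; the x axis gives the distance from the start in bases and the colour the strand. Mt1 has 6 matches, Mt2A 4 and Slc30a1 2, and the nearest match in Mt1 and Mt2A lies 55 to 49 bases before the start.

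The metallothioneins varied the most. Mt1 measured 5.0, 1.99 and 7.78 CPM in restriction 32, 33 and 35, against 3.65, 8.24 and 16.4 CPM in control 23, 28 and 29 of set 2. Set 1 libraries had 3.29, 49.6 and 61.3 CPM in restriction 12, 13 and 15, against 6.89, 27.8 and 47.9 CPM in control 3, 8 and 9. Restriction 33 was lowest and restriction 15 highest, 30.8-fold apart, and the diet groups overlapped within each set. The gene had 58 to 1810 counts over the 12 libraries.

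Mt2A measured 26.2, 4.42 and 30.4 CPM in restriction 32, 33 and 35, against 3.16, 26.8 and 27.5 CPM in control 23, 28 and 29 of set 2. For Mt2A the set 1 values were 8.49, 79.3 and 76.4 CPM in restriction 12, 13 and 15, against 6.92, 46.6 and 74.4 CPM in control 3, 8 and 9. The lowest and highest libraries, control 23 and restriction 13, were 25.1-fold apart, and counts ran from 59 to 2811 over the 12. Again the diet groups overlapped within each set.

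The same 4 libraries were low for both genes, 1 in each group, namely restriction 33, control 23, restriction 12 and control 3. For Mt2A the next library of the group was higher by 5.93-fold in restriction set 2, 8.47-fold in control set 2, 9.00-fold in restriction set 1 and 6.74-fold in control set 1. The other 2 libraries of each group lay within 1.59-fold of each other for Mt2A. For Mt1 the step to the next library was 2.52-fold in restriction set 2, 2.26-fold in control set 2, 15.1-fold in restriction set 1 and 4.04-fold in control set 1. These are bulk samples, in which fewer cells of a type and less RNA per cell cannot be told apart.

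**Figure D2:**
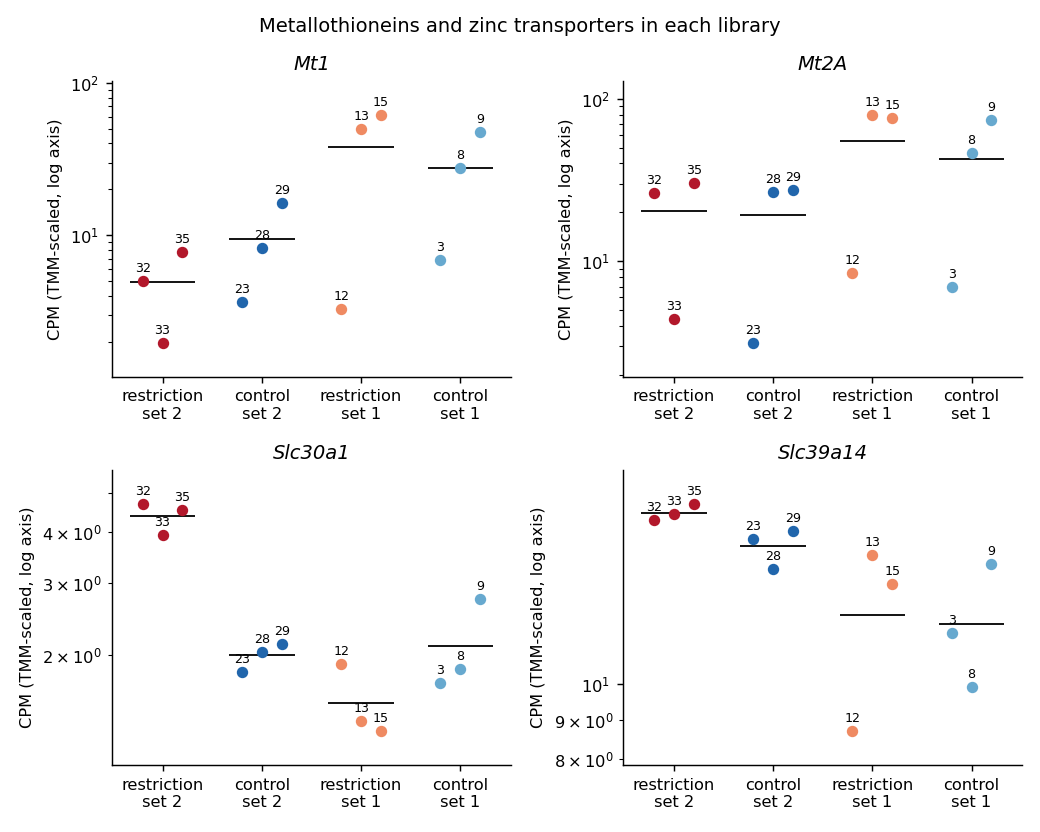
Level of Mt1, Mt2A, Slc30a1 and Slc39a14 in each of the 12 libraries, in TMM-scaled CPM on a log axis; points are libraries with their title numbers and lines are group means of 3 libraries. In each group 1 library lies far below the others for Mt2A (restriction 33, control 23, restriction 12, control 3), while Slc30a1 is highest in the 3 restriction libraries of set 2 at 3.94 to 4.70 CPM.

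As group means, Mt1 measured 4.92 ± 2.90 CPM in restriction set 2, 9.43 ± 6.46 CPM in control set 2, 38.1 ± 30.7 CPM in restriction set 1 and 27.5 ± 20.5 CPM in control set 1 (SD, n = 3 each). Mt2A measured 20.3 ± 13.9 CPM in restriction set 2, 19.1 ± 13.8 CPM in control set 2, 54.7 ± 40.1 CPM in restriction set 1 and 42.6 ± 33.9 CPM in control set 1. For both genes the set 1 groups had the higher means, and the SD of every group was a large part of its mean, so that no neighbours in this order stood apart beyond their spread.

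Around the 4 group means, log2 CPM had a residual SD of 1.55 for Mt1 and 1.74 for Mt2A, against a median of 0.36 over the 14225 genes tested. Mt1 ranked 106 and Mt2A 33 of those genes from the top. Among genes of similar mean level (within 0.5 on the log2 scale), Mt1 had the largest SD of 2076 and Mt2A the third largest of 2110. The transporters did not share this spread between libraries of a group. The residual SD was 0.24 for Slc30a1 and 0.25 for Slc39a14, and 71.3% and 70.5% of all genes tested had an SD as large or larger.

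The ratio of Mt2A to Mt1 counts was not constant. It was 5.25, 2.22 and 3.9 in restriction 32, 33 and 35, against 0.868, 3.25 and 1.67 in control 23, 28 and 29. The set 1 ratios were 2.58, 1.60 and 1.25 in restriction 12, 13 and 15, against 1.00, 1.68 and 1.55 in control 3, 8 and 9. The ratio reflects gene length as well as level, and lengths of the counted models are not used here, so only its change between libraries can be read. It was highest in restriction 32 and lowest in control 23.

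Slc30a1, the zinc exporter, measured 4.70, 3.94 and 4.55 CPM in restriction 32, 33 and 35, against 1.82, 2.04 and 2.13 CPM in control 23, 28 and 29. Slc30a1 in set 1 had 1.90, 1.38 and 1.30 CPM in restriction 12, 13 and 15, against 1.71, 1.85 and 2.75 CPM in control 3, 8 and 9. The 3 restriction libraries of set 2 were above all other libraries, on 115 to 145 counts against 32 to 104 counts elsewhere. As means, restriction set 2 had 4.40 ± 0.40 CPM, control set 1 had 2.10 ± 0.56 CPM, control set 2 had 2.0 ± 0.16 CPM and restriction set 1 had 1.53 ± 0.33 CPM. Restriction set 2 stood above control set 1, and control set 2 above restriction set 1, by more than the SD of either group, while the 2 control groups did not differ beyond theirs.

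Slc39a14, the zinc importer, measured 16.3, 16.7 and 17.2 CPM in restriction 32, 33 and 35, against 15.4, 14.1 and 15.8 CPM in control 23, 28 and 29. Slc39a14 in set 1 had 8.69, 14.7 and 13.5 CPM in restriction 12, 13 and 15, against 11.7, 9.93 and 14.3 CPM in control 3, 8 and 9. Its lowest library was restriction 12 and its highest restriction 35, 1.98-fold apart. As means, restriction set 2 had 16.7 ± 0.41 CPM, control set 2 had 15.1 ± 0.90 CPM, restriction set 1 had 12.3 ± 3.20 CPM and control set 1 had 12.0 ± 2.22 CPM. Restriction set 2 stood above control set 2 by more than their SD, and the other neighbours in this order did not stand apart beyond theirs.

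Neither metallothionein passed the test for diet in either set. In set 2 the restriction minus control log2 fold change was -0.95 ± 0.86 for Mt1 and 0.08 ± 0.92 for Mt2A (SE; adjusted p = 0.75 and adjusted p = 0.99, edgeR quasi-likelihood test with Benjamini-Hochberg adjustment over all genes). In set 1 it was 0.46 ± 0.82 for Mt1 and 0.36 ± 0.91 for Mt2A (adjusted p = 0.93 and adjusted p = 0.96). The SE of 0.82 to 0.92 on the log2 scale stood beside the 1 low library in every group.

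In set 2 Slc30a1 was higher in all 3 restriction libraries, with a log2 fold change of 1.13 ± 0.33, or 2.19-fold (adjusted p = 0.46 by edgeR). It ranked 119 of 14225 genes by p, and the adjusted p did not pass the threshold of 0.05 in edgeR. The lowest adjusted p over 21 alternative settings was 0.093, given by DESeq2, and the highest was 0.87. In set 1 the value for Slc30a1 was -0.46 ± 0.33 (adjusted p = 0.77). The difference between the sets in the diet effect was 1.59 ± 0.47 for Slc30a1 (adjusted p = 0.42 by edgeR, and from 0.099 to 0.70 over 20 alternatives).

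For Slc39a14 the diet value was 0.15 ± 0.21 in set 2 and 0.04 ± 0.21 in set 1 (adjusted p = 0.85 and adjusted p = 0.98 by edgeR). Slc30a1 and Slc39a14 were the members whose restriction libraries lay above all control libraries in set 2. Diet groups did not overlap there for 12.7% of all genes tested, with restriction higher for 7.01%, and no member was separated by diet in set 1, where 17.6% of genes were separated in either direction.

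By edgeR's adjusted p, 0 of the 4 members were called for diet in set 2, where 0 of 14225 genes (0%) were called. At an unadjusted p under 0.05, 1 of 4 members passed in set 2, against 8.59% of all genes. In set 1, 0 of the 4 were called, against 0.00703% of all genes, and 0 passed unadjusted, against 7.54% of all genes. For the mean of both sets 0 were called, against 0.00703%, and 0 passed unadjusted, against 7.83%. For the difference between sets 0 were called, against 0%, and 1 passed unadjusted, against 9.50%. DESeq2 and limma-voom also called 0 of the 4 members in each of these comparisons, whereas DESeq2 called from 30 to 55 of all genes.

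Red blood cell markers differed in level between the diet groups of set 2 beside Slc30a1. The 5 tested of 6 listed genes were all lower in restriction libraries, with a median log2 value of -1.59 against -0.01 over all genes tested, and all 5 had an unadjusted p under 0.05 but 0 an adjusted one by edgeR. Their summed level was 390, 471 and 514 CPM in restriction 32, 33 and 35, against 2445, 738 and 923 CPM in control 23, 28 and 29. Their part in the Slc30a1 result was not tested. Without control 23, the highest of these, the Slc30a1 value was 1.07 on the log2 scale. Control 28 and 29 still had sums above all the restriction libraries, so red blood cell level and diet stayed tied in that fit.

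Mtf1, which encodes the zinc-sensing factor, measured 9.63, 8.95 and 8.72 CPM in restriction 32, 33 and 35, against 5.79, 6.49 and 7.07 CPM in control 23, 28 and 29. Set 1 levels of Mtf1 were 6.63, 4.72 and 4.76 CPM in restriction 12, 13 and 15, against 9.61, 7.24 and 6.85 CPM in control 3, 8 and 9. The restriction libraries were thus all above the controls in set 2 and all below them in set 1. Of all genes tested, 12.7% were separated by diet in set 2 and 17.6% in set 1, in either direction. The log2 fold change was 0.49 ± 0.22 in set 2 and -0.56 ± 0.22 in set 1 (adjusted p = 0.57 and adjusted p = 0.60 by edgeR), so neither passed the test.

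Of the other metallothioneins, Mt3, a form best known from the brain, ranged from 2.15 to 9.88 CPM, and its highest library was control 3, 1 of the 4 with low Mt1 and Mt2A. Mt1m, annotated as a pseudogene close in sequence to Mt1, had 0 to 37 counts and at most 10.1% as many counts as Mt1, with 0 counts in control 23 and restriction 33. Reads could be shared between these near copies, and adding the Mt1m counts to Mt1, an alternative chosen after seeing the data, left the set 2 diet value at -0.90 and the set 1 diet value at 0.46. Mt4, the form of stratified epithelium, had 0 counts in every library.

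Of the 24 genes of the zinc transporter families, 19 passed the low-count filter, 8 of 10 exporters of the Slc30a family and 11 of 14 importers of the Slc39a family. For diet, 0 of the 19 were called by edgeR in either set. The exporters had a median log2 value of 0.03 in set 2 and -0.14 in set 1, and the importers 0.06 in set 2 and 0.15 in set 1, while the median over all genes was -0.01 in set 2 and -0.003 in set 1. At an unadjusted p under 0.05, Slc30a1 and Slc30a5 passed in set 2, and Slc30a3 and Slc39a3 in set 1, that is 2 of 19 in each set, near the 8.59% of all genes in set 2 and 7.54% in set 1. Slc30a5, an exporter into the Golgi, had -0.52 ± 0.20 in set 2. Slc30a3, known for loading synaptic vesicles with zinc, had -0.88 ± 0.30 in set 1, and Slc39a3, a plasma membrane importer, had -0.69 ± 0.26.

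**Figure D3:**
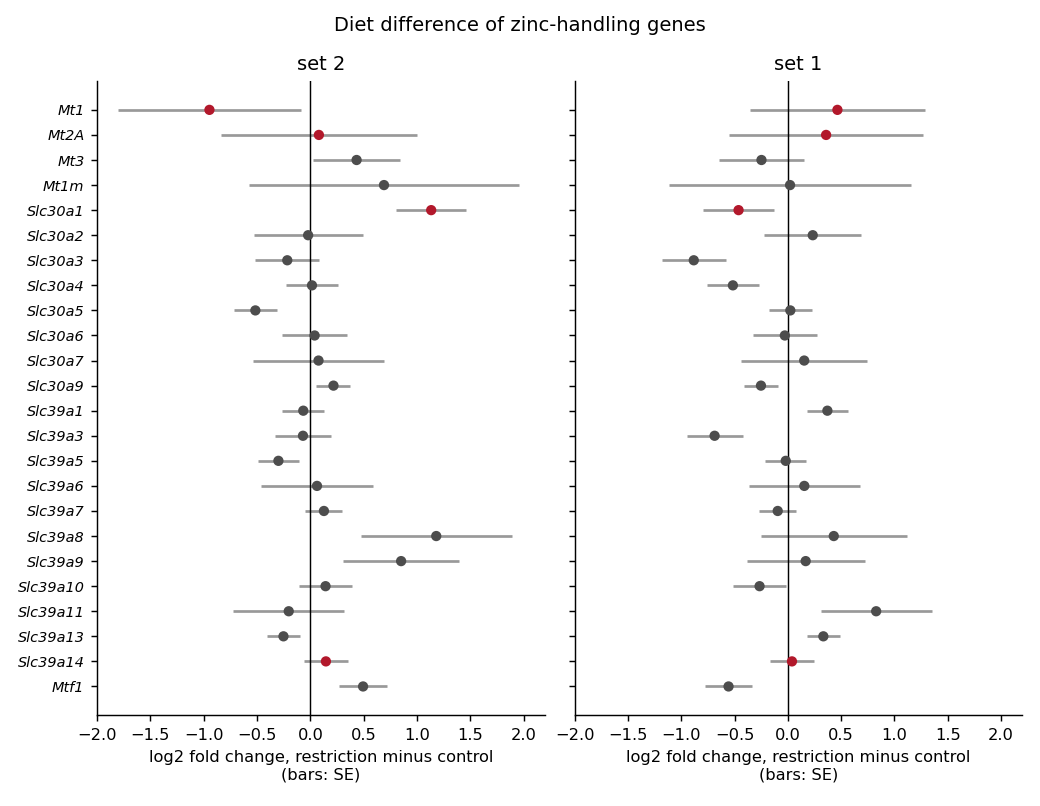
Log2 fold change (restriction minus control) with its SE for the tested metallothioneins, zinc exporters (Slc30a), zinc importers (Slc39a) and Mtf1 in set 2 (left) and set 1 (right), from the fit over all 12 libraries; the 4 members are in red. Slc30a1 lies at 1.13 in set 2 and at -0.46 in set 1, and the bars of Mt1 and Mt2A span 0.82 to 0.92 on each side.

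Among 10 genes listed for metal sensing and as MTF1 targets, 9 were tested and 0 were called for diet in either set by edgeR. Beside Mtf1, Selenow, a muscle selenoprotein, passed unadjusted with -0.67 ± 0.29 in set 2 and -0.94 ± 0.29 in set 1. The median of the 9 was -0.06 in set 2 and -0.13 in set 1. The 10 tested copper genes and the 13 tested iron genes had medians between -0.23 and 0.11, and 0 were called in either set.

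Between the sets, Mt1 was lower and both transporters higher in set 2. The Mt1 log2 fold change, set 2 minus set 1 over both diets, was -2.24 ± 0.61 (adjusted p = 0.0098 by edgeR), and the sets still overlapped, since restriction 12 and control 3 of set 1 lay among the set 2 values. Mt2A had -1.29 ± 0.66 (adjusted p = 0.14). Slc30a1 rose in set 2 with 0.72 ± 0.23 (adjusted p = 0.023), and Slc39a14 rose with 0.39 ± 0.15 (adjusted p = 0.049). For Slc30a1 the control groups, at 2.0 CPM in set 2 and 2.10 CPM in set 1, differed by less than their SD. Thus 3 of the 4 members were called, against 39.5% of all genes tested (19.9% higher and 19.6% lower in set 2), and 0 of the 4 had sets that did not overlap, against 18.7% of all genes.

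These calls were not equally firm. With the title-number pairs as a block in limma-voom the Mt1 value was -1.82 (adjusted p = 0.064), and in limma-voom without the block it was -1.81 (adjusted p = 0.091), whereas edgeR with the block kept it at -1.96 (adjusted p = 0.0079). The Slc39a14 call was lost under 14 of 21 alternatives, with adjusted p from 0.025 to 0.21. Leaving out control 8 or restriction 15 moved the adjusted p of Slc30a1 to 0.052 and 0.05003.

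Other cell types also differed between the sets beside Mt1. All 9 macrophage markers fell in set 2 (edgeR), with a median of -1.78, as did 7 of 7 markers of fibro-adipogenic progenitors, with a median of -1.35, and 6 of 7 adipocyte markers, with a median of -2.83. Of all genes tested, 19.6% were called lower and 19.9% higher in set 2. Of 8 endothelial markers 4 rose and 1 fell, and of 6 Schwann cell markers 2 rose and 2 fell. All 9 fast fibre markers rose and all 8 slow fibre markers fell. Of 18 tested glucocorticoid-induced genes 8 rose and 0 fell, with a median of 0.87, a direction opposite to that of Mt1. Of 14 tested acute phase genes 3 rose and 5 fell, and of 13 tested heat-shock genes 0 rose and 5 fell. The summed macrophage markers ranged from 62.6 to 118 CPM in restriction set 2, 62.9 to 133 CPM in control set 2, 230 to 563 CPM in restriction set 1 and 239 to 425 CPM in control set 1, and 0 of the 9 were at 0. Their part in the Mt1 difference was not tested.

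Within the zinc transporter families, 7 of the 19 tested genes were called between the sets, 5 higher and 2 lower in set 2, a share near the 39.5% of all genes tested. The median log2 value was -0.29 for the exporters and 0.06 for the importers, against -0.007 over all genes tested. Slc30a2, which loads zinc into vesicles and is an MTF1 target in mouse, fell by 2.72 ± 0.36 on the log2 scale (adjusted p = 4.0e-05 by edgeR). Its levels were 0.705, 0.308 and 0.471 CPM in restriction 32, 33 and 35, against 0.215, 0.520 and 0.734 CPM in control 23, 28 and 29. Slc30a2 in set 1 had 2.38, 3.84 and 4.56 CPM in restriction 12, 13 and 15, against 2.22, 3.10 and 3.84 CPM in control 3, 8 and 9. Set 2 lay below set 1 without overlap.

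Slc39a5, a plasma membrane importer, fell by 0.76 ± 0.14 on the log2 scale (adjusted p = 0.00057 by edgeR). The others rose in set 2, namely Slc30a9, a mitochondrial exporter, with 0.33 ± 0.11, Slc39a3 with 0.56 ± 0.18 and Slc39a13, an importer of the secretory pathway, with 0.41 ± 0.11. Mt3 fell by 0.79 ± 0.29 (adjusted p = 0.041), and Mtf1 had 0.24 ± 0.16 (adjusted p = 0.25). Of the 9 metal-sensing genes Selenow rose with 0.78 ± 0.20, while Gclc, which makes the glutathione precursor, and Cebpa, a transcription factor of fat cells, fell by 0.70 ± 0.18 and 1.68 ± 0.36.

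Genes of the other metals were called in both directions between the sets, as were 19.9% (higher) and 19.6% (lower) of all genes tested. Of 10 tested copper genes 1 rose and 2 fell in set 2 (edgeR). Cox17, a copper chaperone of cytochrome oxidase, rose with 0.59 ± 0.09, and the copper chaperone Atox1 had -0.51 ± 0.18. Of 13 tested iron genes 3 rose and 4 fell. Cp, the copper-bearing ferroxidase ceruloplasmin, had -2.10 ± 0.18, and Tf, the iron carrier transferrin, had -1.35 ± 0.22, while Slc25a37, the mitochondrial iron importer, rose with 0.67 ± 0.19.

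Libraries whose title numbers differ by 20 share a diet and may share a rat. The metallothioneins of such partners matched in some pairs and not in others. Control 23 and control 3 were both low for Mt2A, and restriction 35 and restriction 15 both high. Restriction 33 was low at 4.42 CPM beside its partner restriction 13 at 79.3 CPM, and restriction 32 measured 26.2 CPM beside restriction 12 at 8.49 CPM. In the check of the pairs, restriction 13 correlated best with control 23, so its pairing with restriction 33 is less sure.

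Across the 6 pairs Pearson r of log2 CPM between the sets was 0.26 for Mt1 (p = 0.58), 0.32 for Mt2A (p = 0.60), -0.53 for Slc30a1 (p = 0.29) and 0.43 for Slc39a14 (p = 0.41), each by a two-sided exact permutation test over the 720 pairings. Spearman rho was 0.09, 0.43, -0.09 and 0.43 in the same order (exact permutation p = 0.92, 0.42, 0.92 and 0.42). Adjusted over 14191 genes, all p-values were at or above 0.87. The unadjusted threshold of 0.05 was passed by 6.93% of genes and the median r was 0.09. Without the 2 pairs farthest from the set 1 median, r was -0.13 for Mt1, -0.38 for Mt2A, -0.20 for Slc30a1 and 0.53 for Slc39a14. The pairings were permuted across both diets, so r and p mix any diet difference with the likeness of partners. With log2 CPM taken from the group means, r was 0.30 for Mt1, 0.31 for Mt2A, 0.66 for Slc30a1 and 0.68 for Slc39a14.

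Mt1 and Mt2A went together across libraries. With log2 CPM centred on the set means, Pearson r between them was 0.88 and Spearman rho 0.89 over 12 libraries, which share 1 count table and, in pairs, possibly rats. Slc39a14 had r of 0.61 with Mt1 and 0.48 with Mt2A, and Slc30a1 -0.21 with Mt1 and 0.10 with Mt2A. The mean of Mt1 and Mt2A on this scale was -1.59, -1.40, -2.30 and -1.93 in restriction 33, control 23, restriction 12 and control 3, and lay between 0.33 and 1.37 in the other 8. The 12 values therefore fell into 2 clusters, and an r over all 12 takes in the step between them.

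Likeness to the profile was ranked over 11124 named genes with a mean of at least 1 CPM, as Pearson r over the 12 libraries centred on the set means. The 8 highest were Fosl1, a subunit of the AP-1 transcription factor (0.89), Adamts4, a proteoglycan-cleaving protease (0.88), the macrophage scavenger receptor Msr1 (0.87), the actin-binding Twf1 (0.87), the transcriptional co-regulator Sbno2 (0.87), the zinc transporter Slc30a2 (0.86), the macrophage lectin Clec10a (0.86) and the Golgi protein Golph3 (0.85). The 4 lowest were Pik3ap1, an adapter of phosphoinositide 3-kinase (-0.92), Mfsd6, a membrane transporter-like protein (-0.88), Tirap, an adapter of toll-like receptors (-0.87), and Zfp213, a zinc finger protein (-0.87). Slc39a14 ranked 551 with r of 0.55, Slc30a1 ranked 6042 with -0.05 and Mtf1 ranked 9794 with -0.40.

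Within the 8 libraries of the upper cluster, a choice made after seeing the data, the values of r differed. They were 0.72 for Msr1, 0.51 for Twf1, 0.51 for Slc30a2, 0.49 for Sbno2 and 0.20 for Clec10a, but -0.08 for Fosl1, -0.09 for Adamts4 and -0.40 for Golph3. Of the opposite genes, Tirap kept -0.84 and Zfp213 -0.74, Mfsd6 had -0.43 and Pik3ap1 0.30. Slc39a14 had 0.61, Slc30a1 -0.47 and Mtf1 -0.70 in these 8. Leaving out restriction 12, 0 of the 8 genes first named stayed among the 8 highest, and leaving out control 3, 1 did.

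Adamts4 and Pik3ap1, named above for their high and low r with the profile, show the step in opposite directions. Their match to its low libraries follows from that choice and is only a description. Adamts4 measured 1.78, 0.240 and 0.941 CPM in restriction 32, 33 and 35, against 0.322, 3.60 and 4.07 CPM in control 23, 28 and 29. Adamts4 in set 1 had 0.119, 1.15 and 2.2 CPM in restriction 12, 13 and 15, against 0.336, 3.80 and 1.96 CPM in control 3, 8 and 9. In each group its lowest library was the one lowest for Mt2A. These low values rest on few counts, since 0.119 CPM in restriction 12 equals 3 counts. Pik3ap1 measured 18.0, 29.9 and 22.3 CPM in restriction 32, 33 and 35 against 35.1, 20.7 and 20.1 CPM in control 23, 28 and 29. The set 1 levels of Pik3ap1 were 41.7, 23.9 and 24.3 CPM in restriction 12, 13 and 15, against 44.0, 24.4 and 27.1 CPM in control 3, 8 and 9. Here the highest library of each group was the one lowest for Mt2A.

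**Figure D4:**
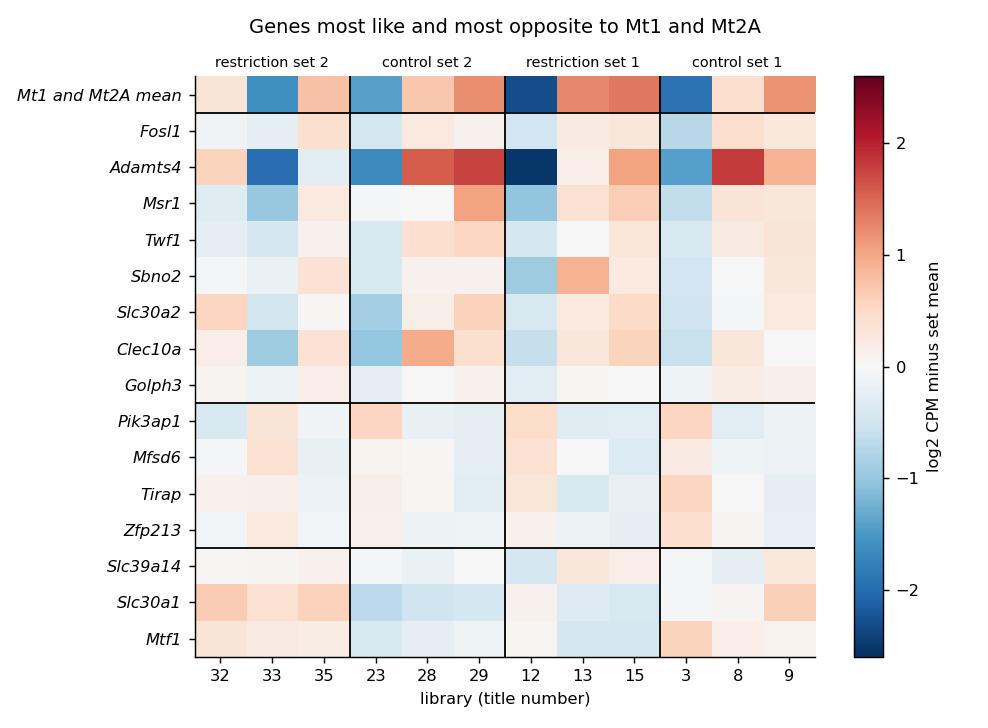
Log2 CPM minus the mean of the set, by colour, for the mean of Mt1 and Mt2A, the 8 genes most like it, the 4 most opposite, Slc39a14, Slc30a1 and Mtf1 (rows) in the 12 libraries (columns, by group). Restriction 33, control 23, restriction 12 and control 3 are the low libraries of the top row, at -1.59, -1.40, -2.30 and -1.93.

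Macrophage genes and genes of the acute phase followed the same step. All 9 macrophage markers had r above 0 with the metallothionein profile, with a median of 0.76 against -0.0008 over all ranked genes, led by the complement genes C1qc and C1qb (0.85 each) and the haemoglobin scavenger receptor Cd163 (0.81). Their summed level had r of 0.88 and rho of 0.84 over 12 libraries, and r of 0.29 within the 8 libraries of the upper cluster. By library the sum was 97.0, 62.6 and 118 CPM in restriction 32, 33 and 35, against 62.9, 133 and 116 CPM in control 23, 28 and 29. In set 1 it was 230, 493 and 563 CPM in restriction 12, 13 and 15, against 239, 425 and 298 CPM in control 3, 8 and 9. The 4 libraries low for Mt2A had the lowest sum of their groups, and the part of macrophages in the metallothionein levels was not tested.

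Of 14 tested genes of the acute phase and interleukin-6 response, 13 had r above 0, with a median of 0.56. The highest were Bcl3, a nuclear co-regulator (0.82), Cebpd, a transcription factor (0.76), and Osmr, the oncostatin M receptor (0.75). The summed level of the list had r of 0.86 and rho of 0.55, and r of 0.14 within the upper cluster. It was 616, 398 and 657 CPM in restriction 32, 33 and 35, against 380, 777 and 737 CPM in control 23, 28 and 29. In set 1 it was 410, 608 and 624 CPM in restriction 12, 13 and 15, against 518, 686 and 766 CPM in control 3, 8 and 9. Again the lowest library of each group was the one low for Mt2A.

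**Figure D5:**
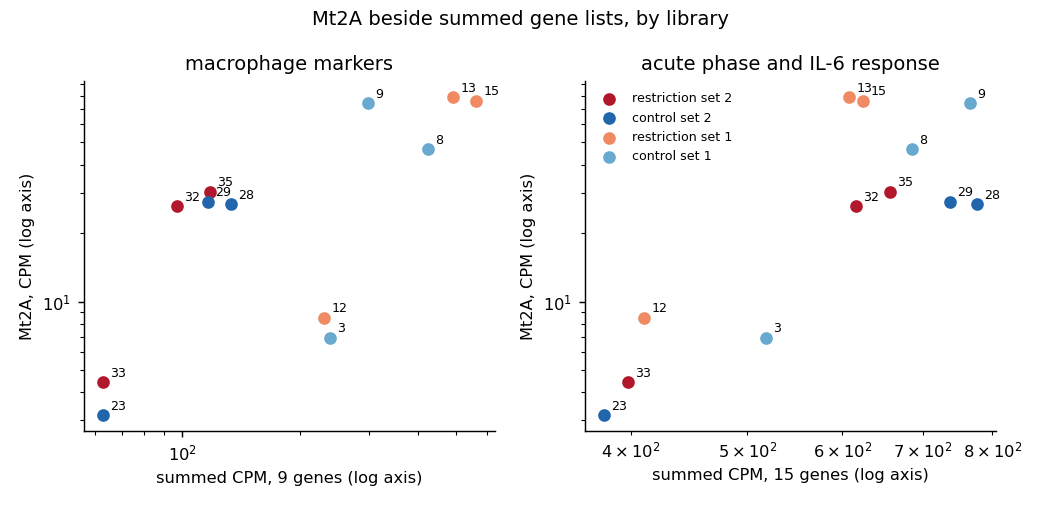
Mt2A in CPM (y axis, log) against the summed CPM of the macrophage markers (left) and of the acute phase and interleukin-6 genes (right, x axes log) in the 12 libraries, coloured by group and labelled with title numbers. Restriction 33, control 23, restriction 12 and control 3 lie lowest on both axes within their groups.

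Of 18 tested glucocorticoid-induced genes, 17 had r above 0, with a median of 0.45. Their summed level had r of 0.57 and rho of 0.34, and r of -0.15 within the upper cluster. Pdk4, a kinase that blocks glucose oxidation, measured 718, 55.2 and 311 CPM in restriction 32, 33 and 35, against 6.06, 642 and 945 CPM in control 23, 28 and 29. Pdk4 in set 1 had 88.3, 28.8 and 74.1 CPM in restriction 12, 13 and 15, against 41.3, 165 and 381 CPM in control 3, 8 and 9. Control 3, control 23 and restriction 33 were the lowest of their groups, while in restriction set 1 the lowest was restriction 13, a library high for Mt2A.

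Among the metal-sensing genes, Hmox1, which degrades haem and is also induced by oxidative stress, had r of 0.83, and Txnrd1, a thioredoxin reductase, 0.68. These were the highest of the 9 tested, of which 5 had r above 0. Mtf1 (-0.40), Selenow (-0.30), Slc39a10 (-0.30) and Cebpa (-0.15) were below 0. Hmox1 measured 3.09, 2.5 and 6.02 CPM in restriction 32, 33 and 35, against 2.41, 8.28 and 8.54 CPM in control 23, 28 and 29. In set 1 it measured 4.92, 10.7 and 9.73 CPM in restriction 12, 13 and 15, against 6.45, 8.86 and 12.4 CPM in control 3, 8 and 9. Its lowest library in each group was the one low for Mt2A. Hmox1, Txnrd1 and the list members named here for their r were picked after their values were seen.

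Several further lists also had medians above that of all ranked genes. The median r was 0.34 for 4 tested neutrophil markers, 0.30 for 14 muscle atrophy genes, of which 13 were above 0, 0.22 for 11 genes of the NRF2 oxidative stress response, of which 9 were above 0, and 0.17 for the 9 metal-sensing genes. The NRF2 and metal-sensing lists share Hmox1, Txnrd1 and Gclc, and Cebpd is on both the acute phase and the glucocorticoid list. Such lists are therefore not separate observations. The 1 tested lymphocyte marker had r of 0.50. The 6 Schwann cell markers had a median r of -0.46 and 0 of the 6 were above 0, with -0.80 for the myelin gene Mbp. Their summed level was 66.1, 130 and 113 CPM in restriction 32, 33 and 35, against 125, 74.5 and 80.8 CPM in control 23, 28 and 29, and in set 1 it was 115, 94.8 and 95.8 CPM in restriction 12, 13 and 15, against 104, 63.2 and 57.3 CPM in control 3, 8 and 9. Its r was -0.63 over 12 libraries and 0.48 within the upper cluster. The 8 skeletal muscle fibre genes had a median r of -0.27. The summed satellite cell markers had r of 0.62 over 12 libraries and -0.15 within the upper cluster, though the median r of the 5 genes was 0.01. The summed smooth muscle and pericyte markers had r of -0.50 and, within the upper cluster, -0.69, with a median r of -0.26 over the 6 genes. Copper genes (10 tested), iron genes (13), zinc exporters (8) and zinc importers (11) had medians between -0.06 and 0.15. The total count of the library had r of 0.23 with the profile, the number of genes with a count 0.15 and the TMM factor 0.37. Within the upper cluster these were -0.05, 0.64 and 0.36 in the same order. The share of counts on mitochondrial tRNA rows had r of -0.18 over 12 libraries and 0.84 within the upper cluster. The part of these measures in the metallothionein levels was not tested.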

How the data were processed

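Total RNA was isolated with Trizol and made into libraries with an Illumina TruSeq kit, per the labels' protocols. That kit does not mark strand, so reads of overlapping antisense genes cannot be told apart. The authors deposited raw counts per gene as whole numbers. The submitters' processing notes name Trimmomatic, HISAT2, featureCounts, DESeq2 and the build Rnor_6.0, with versions, order and annotation not given in the sources used here. A normalized table by the authors was not used.

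Counts were filtered with filterByExpr over the 4 groups, which kept 14225 of 24648 rows, scaled by TMM and fitted with 1 mean per group over 12 libraries (edgeR 4.0.16, R 4.3.3). Quasi-likelihood tests were adjusted by Benjamini-Hochberg over all genes tested, at a threshold of 0.05. The comparisons were restriction against control in each set, their mean and their difference, and set 2 against set 1. Log2 CPM used a prior count of 2. Alternatives were DESeq2 1.42.0, limma-voom (limma 3.58.1), other scaling and filters, only 1 set, a replicate block and leaving out each library. The fit was tested on simulated counts. Libraries of a group differed by more than sampling noise (chi-square per degree of freedom 24.5 to 146.6).

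Title numbers 20 apart were taken as pairs. Deviations from the group means over 11988 genes correlated above 0.1 in all 6 pairs (0.10 to 0.24), and 5 of 6 libraries of set 1 correlated best with their own partner. The exception was restriction 13, which correlated best with control 23 and was kept paired with restriction 33. The pairs were formed by title number and not by this check, and no label states that partners share a rat.

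The members, gene lists and tests were chosen with earlier results of these data known. The rule for named genes took all 4 members, up to 4 called genes per pathway list and comparison by smallest p, and the 8 genes most and 4 least like the mean of Mt1 and Mt2A. Other genes were picked after their values were seen. Selenow was matched through an older symbol. Promoter windows came by symbol from RefSeq on GRCr8, a build other than that of the counts, for 3 of the 4 members.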

Additional observations from a re-analysis of the deposited data

Results flagged for a closer look

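Mtf1 stood out because its restriction libraries lay above the controls in set 2 and below them in set 1, without overlap in either set. The difference in the diet effect, set 2 minus set 1, was 1.05 on the log2 scale (SE 0.31, adjusted p = 0.42 by edgeR, and from 0.13 to 0.70 over its alternatives). The flag rests on the untested order of the libraries, and the test of the difference did not pass the threshold. For comparison, Slc30a1, whose level also ran higher with restriction in set 2, had 1.59 ± 0.47 in the same test (adjusted p = 0.42).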

How the results depend on the processing

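For diet, 0 of the 4 members were called under every alternative run, and the counts over all genes were small and moved with the tool. DESeq2 called 38 genes in set 1, 40 in set 2, 55 for the mean of sets and 30 for their difference, limma-voom called 3 in set 1 and 0 for the mean, and with no filter on low counts 6, 3, 11 and 1 were called in the same order as for DESeq2. The libraries of set 1 alone gave 5 calls there. With the replicate block (limma-voom, duplicateCorrelation) 3 were called in set 1 and 0 for the mean of sets, the same counts as in limma-voom without it. Between the sets Mt1 missed the threshold in limma-voom with the block (-1.82, adjusted p = 0.064) and without it (-1.81, adjusted p = 0.091), and passed it in edgeR with the block (-1.96, adjusted p = 0.0079), so against the same tool the block changed no call of a member. Without 1 library each, the counts ran from 1 to 22 in set 1, 0 to 4 in set 2, 0 to 8 for the mean, 0 to 1 for the difference and 4880 to 6450 between the sets; the highest were reached without control 23, except for the difference, where it was without restriction 33.

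Small diet values changed sign when 1 library was left out. On the log2 scale, Mt1 ran from -0.060 to 1.13 in set 1 and from -0.50 to 0.092 for the mean of sets. Mt2A ran from -0.13 to 1.03 in set 1, -0.41 to 0.55 in set 2, -0.027 to 0.55 for the mean and -0.95 to 0.23 for the difference. Slc39a14 ran from -0.11 to 0.24 in set 1 and from -0.092 to 0.25 for the difference, and Mtf1 from -0.12 to 0.062 for the mean (0.010 with library size alone). Between the sets 1 to 3 members were called, with 1 left without control 8 or restriction 15, and Slc39a14 had an adjusted p of 0.21 with library size alone. Without 1 library each, the residual SD ran from 1.10 to 1.66 for Mt1, 1.58 to 1.84 for Mt2A, 0.18 to 0.26 for Slc30a1 and 0.15 (without restriction 12) to 0.26 for Slc39a14, which had 0.29 with library size alone.

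Across pairs, without 1 pair each, r ran from 0.05 to 0.77 for Mt1, -0.29 to 0.68 for Mt2A, -0.72 to -0.37 for Slc30a1 and 0.17 to 0.86 for Slc39a14. For Mt1 and Mt2A the highest r was reached without restriction 13 and 33, the pair that the check left less sure. The lowest was without control 9 and 29 for Mt1, and without control 3 and 23 for Mt2A. Taken from the group means, which removes the diet difference, r was 0.66 for Slc30a1. Likeness to the metallothionein profile turned for Golph3 (-0.13) and Slc39a14 (-0.0092) with no centring, and for Slc30a1 when centred on the 4 group means (0.11) or without 1 library (-0.24 to 0.065). Within the 8 libraries of the upper cluster it turned for Fosl1 (-0.079), Adamts4 (-0.086), Golph3 (-0.40) and Pik3ap1 (0.30). The cause of these changes was not tested. Among the 4 members depth limits Slc30a1 most, with 32 to 145 counts a library.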
